A study of Rattus norvegicus with 24 samples.

Results

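Ribosomal protein and translation factor genes were followed in rat hippocampus after an operation that causes ischemia. A probe set, the group of short probes that stands for a transcript on an Affymetrix array, was taken if its annotation gave exactly 1 gene and the symbol began with Rpl or Rps and then a digit or p (ribosomal genes), or with Eif or Eef and then a digit (factor genes), leaving out the Rps6k kinases. Each gene was represented by its probe set with the highest mean over all arrays. This gave 69 genes, 43 ribosomal and 26 factor genes, of the 4737 genes that the annotation names alone on a probe set. The tolerant arm is called TOL in the labels and the arm sensitive to hypoxia is called SHAM. Both were sampled at 0, 1, 3, 12, 24 and 48 h after the operation, with 2 Affymetrix rat arrays of total RNA for each of the 12 combinations, 24 arrays in all, from a first and a second experiment. The labels give no strain, sex, age or length of ischemia, do not say how tolerance was brought about, and describe the SHAM arm, too, as sampled after the ischemia operation. Whether a group's arrays stand for different animals is not stated, and the p-values therefore reflect a sample-to-sample spread that could be technical.

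A ribosome is built of ribosomal RNA and the proteins of its small (Rps) and large (Rpl) subunits. Initiation factors (Eif) bring the start codon, the first transfer RNA and both subunits together, and elongation factors (Eef) move the ribosome along the message. Brain ischemia is known to halt protein synthesis early in reperfusion through phosphorylation of the alpha subunit of eIF2, and hippocampal CA1 neurons recover synthesis poorly unless they were made tolerant. Most vertebrate ribosomal protein messages begin with a run of pyrimidines, the terminal oligopyrimidine or TOP tract, through which mTOR signalling controls their translation. An array measures how much message is present, not how much of it is translated.

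The tract can be read at the annotated starts. The 40 bases around the RefSeq start (assembly GRCr8) are shown for 7 ribosomal genes whose levels are described below and for Rps27l and Eif2ak2, which had the largest called rises of the 2 classes. The annotated start is the 21st base, and capitals mark a C followed by at least 4 pyrimidines.
Rplp0 (chr12:46718371-46718410, minus strand): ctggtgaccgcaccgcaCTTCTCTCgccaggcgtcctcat
Rpl19 (chr10:83519044-83519083, plus strand): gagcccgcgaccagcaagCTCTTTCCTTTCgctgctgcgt
Rpl13a (chr1:104748894-104748933, minus strand): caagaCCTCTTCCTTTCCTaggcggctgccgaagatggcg
Rpl14 (chr8:129163600-129163639, plus strand): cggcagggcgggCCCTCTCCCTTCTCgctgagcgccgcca
Rps9 (chr1:74430418-74430457, minus strand): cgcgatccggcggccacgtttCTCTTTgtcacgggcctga
Rps10 (chr20:5700725-5700764, minus strand): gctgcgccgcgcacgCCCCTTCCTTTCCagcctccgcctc
Rpl35a (chr11:81235002-81235041, minus strand): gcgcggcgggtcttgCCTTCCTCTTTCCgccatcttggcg
Rps27l (chr8:76443638-76443677, plus strand): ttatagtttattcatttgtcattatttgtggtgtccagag
Eif2ak2 (chr6:21941134-21941173, plus strand): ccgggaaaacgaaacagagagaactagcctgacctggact
The search was on the gene's strand alone, for a motif that begins within 10 bases of the start on either side. It was found in 23 of the 37 ribosomal genes with a sequence in the table (62.2%), in 6 of 25 factor genes (24%) and in 27.8% of all 33469 promoters of the table. The 7 ribosomal genes shown first are all among the 23, so they do not stand for the class. Rpl18, Rplp1l3 and Rpl41, whose levels are also described below, had no match and are not shown. A match describes these letters and is not evidence of a working tract. The 23 ribosomal genes with a match had a median log2 difference from 0 h of 0.29 at TOL 48 h and -0.12 at SHAM 48 h, and the 14 without had 0.32 and 0.33, with no test of the difference.

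Levels are intensities in arbitrary units after quantile normalisation, and the deposited scale is named where it is used. Ribosomal genes were among the brightest on the array. The median ribosomal gene stood between the 94.8th and 97.3rd percentile of all probe sets on each array, and the median factor gene between the 78th and 83.3rd. The noise level was 41.1 units, the 99th percentile of probe sets whose mean was not above 0. Of the 69 genes, 60 lay above it on all 24 arrays. Eif4e2 and Rpl17 did so on 23, Eif2b3 on 21, Rps24 on 14, Eif2d on 13, Rpl30 on 11, Rpl5 on 9, and Eif2b5 and Rps2-ps1 on 0. All 69 passed the filter on low values and were tested. Rps2-ps1 and Rps4x-ps9 carry pseudogene symbols, Rplp1l3, Rpl19l4 and Rpl36al1 are named as copies of other genes, and Rps27l is a close paralog of Rps27, so these probe sets may also read the related messages. For 28 pairs of probe sets of 1 gene that lay above the noise level on every array, the correlation over the 24 arrays had a median of 0.42 (-0.22 to 0.96), given as a description. Replicate arrays of a group differed less for ribosomal genes (median SD 0.11 on the log2 scale) than for factor genes (0.19) or all tested probe sets (0.30).

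The arrays themselves differed with arm and time. They correlated at 0.921 to 0.954 within groups, their deposited medians ran between 51.6 and 85.6 units, and the GAPDH 3′ to 5′ ratio, a sign of RNA integrity, was 1.00 to 1.36 in TOL and 0.99 to 1.27 in SHAM, highest on a TOL 48 h array. The same ratio of actin was 1.39 to 1.58 in TOL and 1.36 to 2.00 in SHAM, highest on the SHAM 12 h arrays (1.99 and 2.00). Hybridisation took place on 2 days. Day 2 held all TOL arrays but TOL 0 h replicate 1, and day 1 held that array and all SHAM arrays but SHAM 48 h replicate 2. By day, the GAPDH ratio was 0.99 to 1.14 on day 1 and 1.12 to 1.36 on day 2. It was 1.00 on TOL 0 h replicate 1 and 1.27 on SHAM 48 h replicate 2. The TOL arrays of 3 and 12 h shared 1 inferred fluidics run and those of 24 and 48 h another, so that run and time cannot be told apart between these pairs of times. Summed microglia and macrophage markers (6 on the array, of which Cd74, Csf1r and Itgam lay below the noise level at 0 and 48 h in both arms) averaged 1587 units at TOL 48 h and 452 units at TOL 0 h, and 1096 units at SHAM 48 h and 461 units at SHAM 0 h. Summed neuron and hippocampus markers, 12 in number, averaged 11907 units at TOL 48 h and 16377 units at TOL 0 h, and 12549 and 16394 units at SHAM 48 h and 0 h, and 10 to 12 of them lay above the noise level in each group. In these bulk samples fewer cells of a type and less RNA per cell cannot be told apart. The part of these shifts in the changes below was not tested.

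In TOL the ribosomal genes as a group were lowest at 1 and 3 h and highest at 48 h. Their median level was 1731 and 1499 units on the 0 h arrays, 1396 and 1435 units at 1 h, 1311 and 1459 units at 3 h, 1725 and 1663 units at 12 h, 2012 and 1888 units at 24 h, and 2017 and 2103 units at 48 h. The 1 h and 3 h arrays all lay below both 0 h arrays, and the 24 h and 48 h arrays all lay above them. The median log2 difference of the 43 genes from 0 h was -0.16 at 1 h, -0.15 at 3 h, 0.01 at 12 h, 0.14 at 24 h and 0.30 at 48 h, where the class median varied between replicate arrays with an SD of 0.07. Of the 43 genes, 35 had a difference below 0 at 1 h and 35 at 3 h. That left 18.6% above 0 at each of these times, against 46.6% and 46.1% of all tested probe sets. At 48 h 37 (86%) had a difference above 0, against 45.1% of all tested probe sets. Between 3 h and 48 h, 40 of the 43 were higher at 48 h, by a median of 0.41, and 47.6% of all tested probe sets were.

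In SHAM the median level of the same genes was highest at 12 and 24 h. It was 1634 and 1735 units at 0 h, 1599 and 1702 units at 1 h, 1674 and 1786 units at 3 h, 1928 and 1935 units at 12 h, 2033 and 1908 units at 24 h, and 1763 and 1634 units at 48 h. The 48 h arrays overlapped those at 0 h, and the 12 h arrays were those with the highest actin 3′ to 5′ ratios, whose part in these levels was not tested. The median differences from 0 h were -0.08, -0.04, 0.01, 0.10 and 0.02 at 1, 3, 12, 24 and 48 h. At 48 h 22 of 43 genes (51.2%) were above 0, against 48.1% of all tested probe sets. At 12 h 23 genes (53.5%) were above 0 and 20 below, with 50.2% of all tested probe sets above 0. The higher median level at 12 h was thus not matched by the differences gene by gene. Of the 43 genes, 14 had their highest SHAM group mean at 0 h, 6 at 12 h and 12 at 24 h. No ribosomal gene passed the test of a different time course in TOL than in SHAM (limma's interaction F test, 0 of 43, with 0.353% of all tested probe sets called). Without SHAM 0 h replicate 2, 1 passed. With all arrays, 11 had an unadjusted p under 0.05 in that test, and the share of all tested probe sets at that cutoff was not counted.

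**Figure D1:**
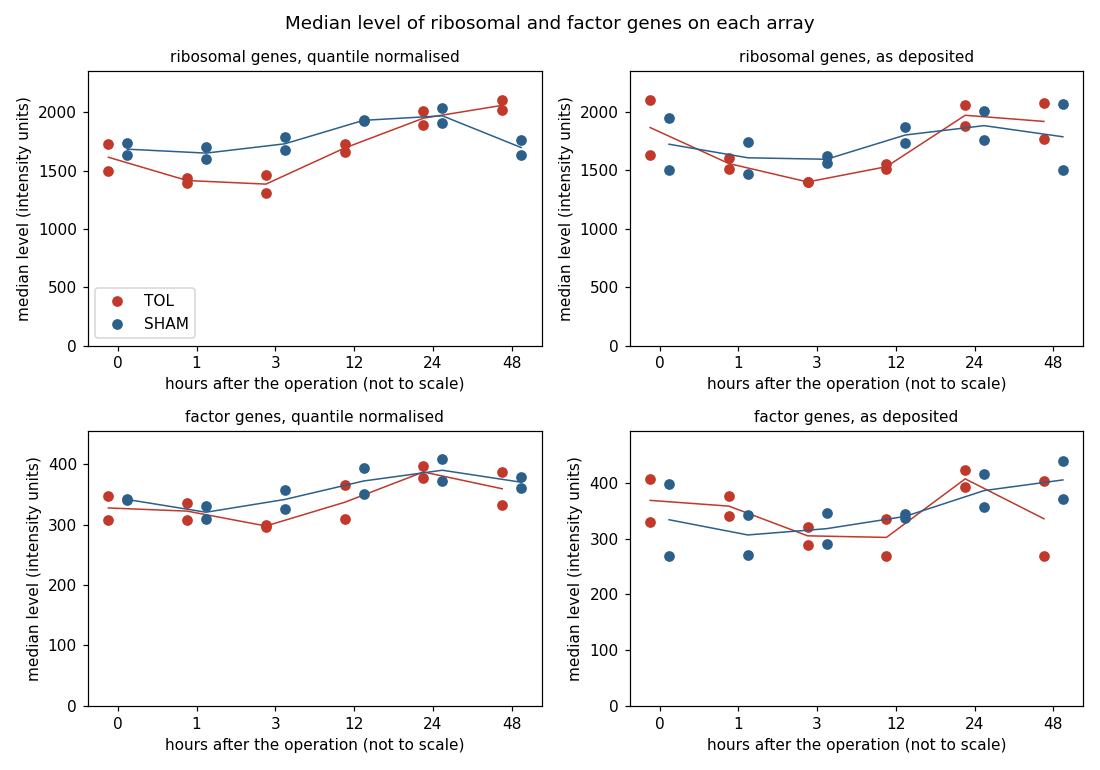
Median level (intensity units, axis from 0) of the 43 ribosomal genes (top) and 26 factor genes (bottom) at each time, quantile normalised (left) and as deposited (right). Points are arrays, TOL in red left of SHAM in blue, and lines join the means of 2 arrays. Ribosomal TOL arrays at 3 h had 1311 and 1459 normalised units and those at 48 h had 2017 and 2103.

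On the deposited scale the whole array level moved as well. The median of all tested probe sets at TOL 12 h and 48 h lay 0.36 and 0.28 below that at 0 h on the log2 scale. The ribosomal median differences in TOL became -0.20, -0.35, -0.37, -0.04 and -0.03 at 1, 3, 12, 24 and 48 h. Relative to all tested probe sets they were -0.16, -0.18, -0.01, 0.11 and 0.25, and on the normalised scale -0.15, -0.14, 0.04, 0.18 and 0.34. The same relative values in SHAM were -0.13, -0.14, -0.01 and 0.03 at 1, 3, 12 and 24 h as deposited. On the normalised scale they were -0.08, -0.04, 0.01 and 0.11. The early fall was thus closer in size between the arms as deposited (-0.16 and -0.18 in TOL). In SHAM all tested probe sets lay 0.18 higher at 48 h than at 0 h as deposited, and the ribosomal genes stood at -0.14 relative to them. This relative value was -0.17 with arrays divided by their median, -0.15 by their trimmed mean and 0.04 after quantile normalisation. The SHAM 48 h shift was thus above 0 after quantile normalisation alone, by less than the SD of the class median between replicate arrays (0.07).

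The F test over the 5 later times against 0 h called 17 of the 43 ribosomal genes in TOL (39.5%), where it called 11.7% of all tested probe sets. In SHAM it called 7 of 43 (16.3%), with 15.7% of all. Of the 17 genes called in TOL, 14 had their lowest group mean at 1 or 3 h and 11 their highest at 48 h. On the deposited scale the test called 2 of 43 in TOL and 1 of 43 in SHAM (4.91% and 5.94% of all). Within the day that holds most TOL arrays, where TOL 0 h replicate 2 is the only 0 h array, it called 3 of 43 (4.02% of all), and the class medians against that array were -0.07, -0.08, 0.01, 0.25 and 0.33 at 1, 3, 12, 24 and 48 h. Within the day that holds most SHAM arrays it called 1 of 43 (6.77% of all). Leaving out TOL 24 h replicate 1 left 9 calls and leaving out replicate 2 left 10. In SHAM 3 calls were left without SHAM 0 h replicate 1, and dropping SHAM 1 h replicate 1, SHAM 12 h replicate 2 or either SHAM 48 h array left 4.

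**Figure D2:**
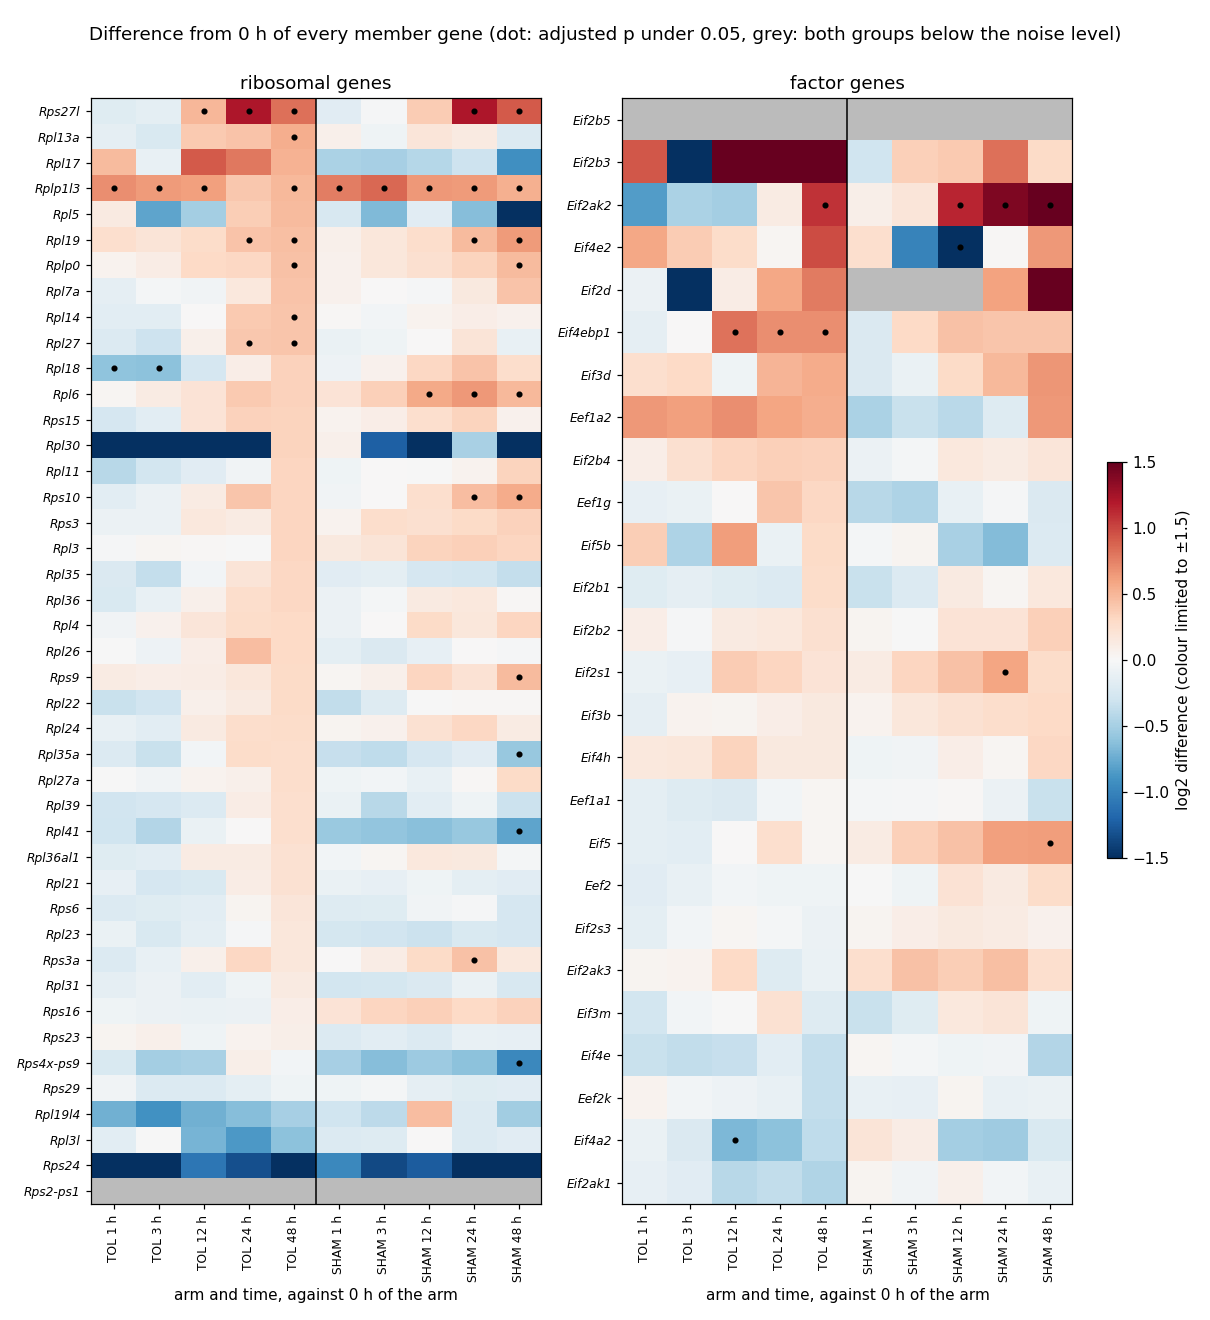
Log2 difference from 0 h of the same arm for each of the 43 ribosomal (left) and 26 factor genes (right), with TOL columns left of SHAM columns and genes ordered by the difference at TOL 48 h. Red is higher and blue lower, with the colour limited to ±1.5, a dot marks an adjusted p under 0.05, and grey marks cells with both groups below the noise level. Rps27l had 5 dots, and Rplp1l3 had 9.

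Rps27l, a paralog of the small subunit protein RPS27 and a p53 target in human cells, had the largest called rise of the ribosomal genes. In TOL it had 319 and 288 units at 0 h, 258 and 275 units at 1 h, 275 and 271 units at 3 h, 418 and 440 units at 12 h, 714 and 687 units at 24 h, and 609 and 472 units at 48 h. The SHAM arrays had 310 and 314 units at 0 h, 290 and 265 units at 1 h, 314 and 300 units at 3 h, 441 and 373 units at 12 h, 738 and 703 units at 24 h, and 615 and 565 units at 48 h. Both arrays at 12, 24 and 48 h lay above both 0 h arrays in each arm. At 24 h the log2 difference was 1.21 ± 0.13 (SE) in TOL (adjusted p = 6.06e-05) and 1.21 ± 0.13 in SHAM (adjusted p = 5.77e-05), and both calls held in all 24 fits that left out 1 array and in the other 10 settings run. At 48 h it was 0.82 ± 0.13 in TOL (adjusted p = 0.00182) and 0.92 ± 0.13 in SHAM (adjusted p = 0.000556). The SHAM 48 h call held in the same settings, and that of TOL was lost on the deposited scale and within the TOL day, with differences of 0.55 and 0.90. The TOL rise at 12 h (0.50 ± 0.13, adjusted p = 0.0415) was called in 6 of the 24 fits that left out 1 array and in 7 of the 10 other settings, with a lowest difference of 0.18.

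Rpl19 and Rplp0 rose in both arms. Rpl19, a large subunit protein, had 2872 and 3113 units at 0 h, 3464 and 3649 units at 1 h, 3402 and 3464 units at 3 h, 3423 and 3799 units at 12 h, 4046 and 3992 units at 24 h, and 4248 and 3942 units at 48 h in TOL. Its SHAM values were 2782 and 2704 units at 0 h, 2742 and 3060 units at 1 h, 3126 and 3037 units at 3 h, 3326 and 3266 units at 12 h, 3726 and 3871 units at 24 h, and 4385 and 4157 units at 48 h. The arrays of 24 and 48 h lay above those of 0 h in both arms, by 0.43 ± 0.10 and 0.45 ± 0.10 in TOL (adjusted p = 0.0179 and 0.0128) and by 0.47 ± 0.10 and 0.64 ± 0.10 in SHAM (adjusted p = 0.00798 and 0.00107). All 4 calls were lost on the deposited scale and with arrays divided by their median, where the 48 h differences were 0.14 to 0.34 in TOL and 0.27 to 0.56 in SHAM. Rplp0, the acidic stalk protein of the large subunit, had 3776 and 4019 units at TOL 48 h, against 2790 and 2943 units at TOL 0 h (0.44 ± 0.10, adjusted p = 0.0173). In SHAM it had 3649 and 3686 units at 48 h, where its 0 h arrays had 2664 and 2602 (0.48 ± 0.10, adjusted p = 0.00866), and its arrays did not overlap in either arm. Both Rplp0 calls were lost on the deposited scale and within a hybridisation day, and over all settings the difference was 0.18 to 0.47 in TOL and 0.12 to 0.49 in SHAM.

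Counted by time, ribosomal genes rose more often than they fell at the late times. In TOL 1 rose and 1 fell at 1 h (0.902% and 0.338% of all tested probe sets), 1 rose and 1 fell at 3 h (0.917% and 0.282%), 2 rose at 12 h (2.51%), 3 rose at 24 h (4.3%) and 7 rose at 48 h (4.19%). None fell at these 3 times, where 1.96%, 3.07% and 3.31% of all tested probe sets did. In SHAM 1 rose at 1 h (0.733%), 1 at 3 h (1.4%), 2 at 12 h (3.07%) and 6 at 24 h (5.01%). The SHAM 48 h contrast had 7 rises and 3 falls (6.13% and 6.23%). None fell up to 24 h, where 0.0846%, 0.635%, 2.74% and 4.1% of all did. Without SHAM 0 h replicate 1 the calls at SHAM 24 h numbered 2. As shares of the 43 genes, 16.3% were called at TOL 48 h and 23.3% at SHAM 48 h. At TOL 48 h, leaving out either TOL 48 h array left 2 calls, and at SHAM 48 h, leaving out replicate 1 left 6 and leaving out replicate 2 left 4.

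The calls in TOL beside these were falls of Rpl18 and rises of Rpl27, Rpl13a and Rpl14, all large subunit proteins. Rpl18 had 777 and 773 units at TOL 1 h and 774 and 769 units at TOL 3 h, against 1132 and 1228 units at TOL 0 h. These 4 arrays lay close together and below every other TOL array, with differences of -0.60 ± 0.13 (adjusted p = 0.0384) and -0.61 ± 0.13 (adjusted p = 0.0391). The Rpl18 calls at 1 and 3 h held in 10 and 12 of the 24 fits that left out 1 array. Rpl27 had 2539 and 2572 units at TOL 24 h and 2519 and 2647 units at TOL 48 h, against 2115 and 1766 units at TOL 0 h (0.40 ± 0.11 and 0.42 ± 0.11, adjusted p = 0.0368 and 0.0304). Rpl13a, also known as a part of an interferon-gated silencing complex in human monocytes, had 2233 and 2327 units at TOL 48 h, against 1809 and 1345 units at TOL 0 h (0.55 ± 0.15, adjusted p = 0.0439). The 2 Rpl13a arrays at 0 h stood further apart than those at 48 h, and leaving out replicate 2 of the 0 h group gave 0.33 and leaving out its replicate 1 gave 0.76. The Rpl13a call held in 7 of the 24 fits that left out 1 array. Rpl14 had 735 and 882 units at TOL 48 h, against 574 and 629 units at TOL 0 h (0.42 ± 0.12, adjusted p = 0.0468), and was called in 3 of the 24 fits that left out 1 array. None of these calls of Rpl18, Rpl27, Rpl13a and Rpl14 held on the deposited scale or within the TOL day. Those of Rpl27 and Rpl13a were also lost over the mean of a gene's probe sets. Each of these 2 genes had a second probe set, above the noise level on every array. It correlated at 0.28 (Rpl27) and 0.19 (Rpl13a) with the one used, and did not pass in TOL (F test adjusted p = 0.819 and 0.538). For Rpl18 the call was lost and the size was kept, with differences of -0.67 to -0.60 at 1 h and -0.77 to -0.60 at 3 h over the 10 other settings. The 48 h differences ran from 0.073 to 0.55 for Rpl27, 0.22 to 0.76 for Rpl13a and 0.14 to 0.42 for Rpl14, and that of Rpl27 at 24 h from 0.16 to 0.53.

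Rplp1l3, named as a copy of the stalk protein gene Rplp1, was dim and early. It had 109 and 119 units at TOL 0 h, and 189 and 181 units at 1 h, 168 and 188 units at 3 h, 184 and 166 units at 12 h, 140 and 163 units at 24 h, and 159 and 161 units at 48 h. The SHAM arrays had 103 and 110 units at 0 h, 172 and 191 units at 1 h, 177 and 210 units at 3 h, 170 and 165 units at 12 h, 178 and 154 units at 24 h, and 139 and 170 units at 48 h. All 20 later arrays lay above all 4 arrays of 0 h. It was the only ribosomal gene with a rise called at 1 and 3 h, by 0.70 ± 0.14 and 0.64 ± 0.14 in TOL (adjusted p = 0.0201 and 0.0391) and by 0.77 ± 0.14 and 0.86 ± 0.14 in SHAM (adjusted p = 0.0133 and 0.00437). Of its 9 calls, 1, at SHAM 48 h, held on the deposited scale, and 4 held with the hybridisation day in the fit, all in SHAM. Its calls at TOL 3 h and 48 h held in 12 and 8 of the 24 fits that left out 1 array. The differences stayed above 0 in each of the 10 other settings. They were 0.74 to 0.82 at SHAM 1 h, 0.82 to 0.93 at SHAM 3 h, 0.59 to 0.73 at TOL 1 h and 0.51 to 0.68 at TOL 3 h, and reached down to 0.26 at TOL 12 h and 48 h.

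In SHAM rises were also called for Rpl6, Rps10, Rps3a and Rps9. Rpl6, a large subunit protein, had 2023 and 2051 units at 12 h, 2250 and 2071 units at 24 h, and 2012 and 1862 units at 48 h, where its 0 h arrays had 1222 and 1549. Its differences were 0.57, 0.65 and 0.49 with an SE of 0.14 (adjusted p = 0.0349, 0.0113 and 0.0377), and SHAM 0 h replicate 1 was the lowest array of this gene. Rps10, at the mRNA entry side of the small subunit, had 1299 and 1546 units at SHAM 24 h and 1470 and 1571 units at SHAM 48 h, against 1042 and 1019 units at SHAM 0 h (0.46 ± 0.12 and 0.56 ± 0.12, adjusted p = 0.0295 and 0.00988). Rps3a had 3140 and 2753 units at SHAM 24 h, against 2137 and 2213 units at SHAM 0 h (0.44 ± 0.11, adjusted p = 0.0234), but did not pass the F test of the arm (adjusted p = 0.0584). Rps9 had 2431 and 2221 units at SHAM 48 h, against 1612 and 1735 units at SHAM 0 h (0.47 ± 0.11, adjusted p = 0.0123). At the times called, the arrays of these 4 genes did not overlap those of 0 h. All 7 calls were lost on the deposited scale, with arrays divided by their median and within the SHAM day. Over the 10 other settings the differences were 0.24 to 0.65 for Rpl6, 0.26 to 0.61 for Rps10, 0.20 to 0.44 for Rps3a and 0.21 to 0.54 for Rps9. Without SHAM 0 h replicate 1 the Rpl6 differences were 0.39, 0.48 and 0.32 at 12, 24 and 48 h, and none was called. A second probe set of Rpl6 was about as bright (mean of 1647 units, against 1723). It passed the F test in TOL and not in SHAM (adjusted p = 0.0205 and 0.293), the reverse of the one used here (0.247 and 0.0353). Over the mean of both, the Rpl6 calls at 12 and 48 h were lost.

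The 3 falls, at SHAM 48 h, were of genes that did not pass the F test of the arm. Rpl35a, a large subunit protein mutated in some cases of human Diamond-Blackfan anaemia, had 1076 and 1013 units at SHAM 48 h, against 1482 and 1612 units at SHAM 0 h (-0.57 ± 0.13, adjusted p = 0.0136). In TOL the same gene had 1340 and 1276 units at 48 h, where its 0 h arrays had 1149 and 1024 (0.27 ± 0.13, adjusted p = 0.25), a difference that was not called. Rpl41, a very short large subunit protein, had 723 and 702 units at SHAM 48 h, against 1634 and 925 units at SHAM 0 h (-0.79 ± 0.20, adjusted p = 0.0211). The value of 1634 stood alone among the 24 Rpl41 arrays, and without SHAM 0 h replicate 1 the difference was -0.38. Rps4x-ps9 had 625 and 487 units at SHAM 48 h, against 1088 and 1072 units at SHAM 0 h (-0.97 ± 0.21, adjusted p = 0.011). All 3 calls were lost on the deposited scale and within the SHAM day, while the differences over the 10 other settings were -0.81 to -0.50 for Rpl35a, -0.95 to -0.67 for Rpl41 and -1.15 to -0.76 for Rps4x-ps9.

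**Figure D3:**
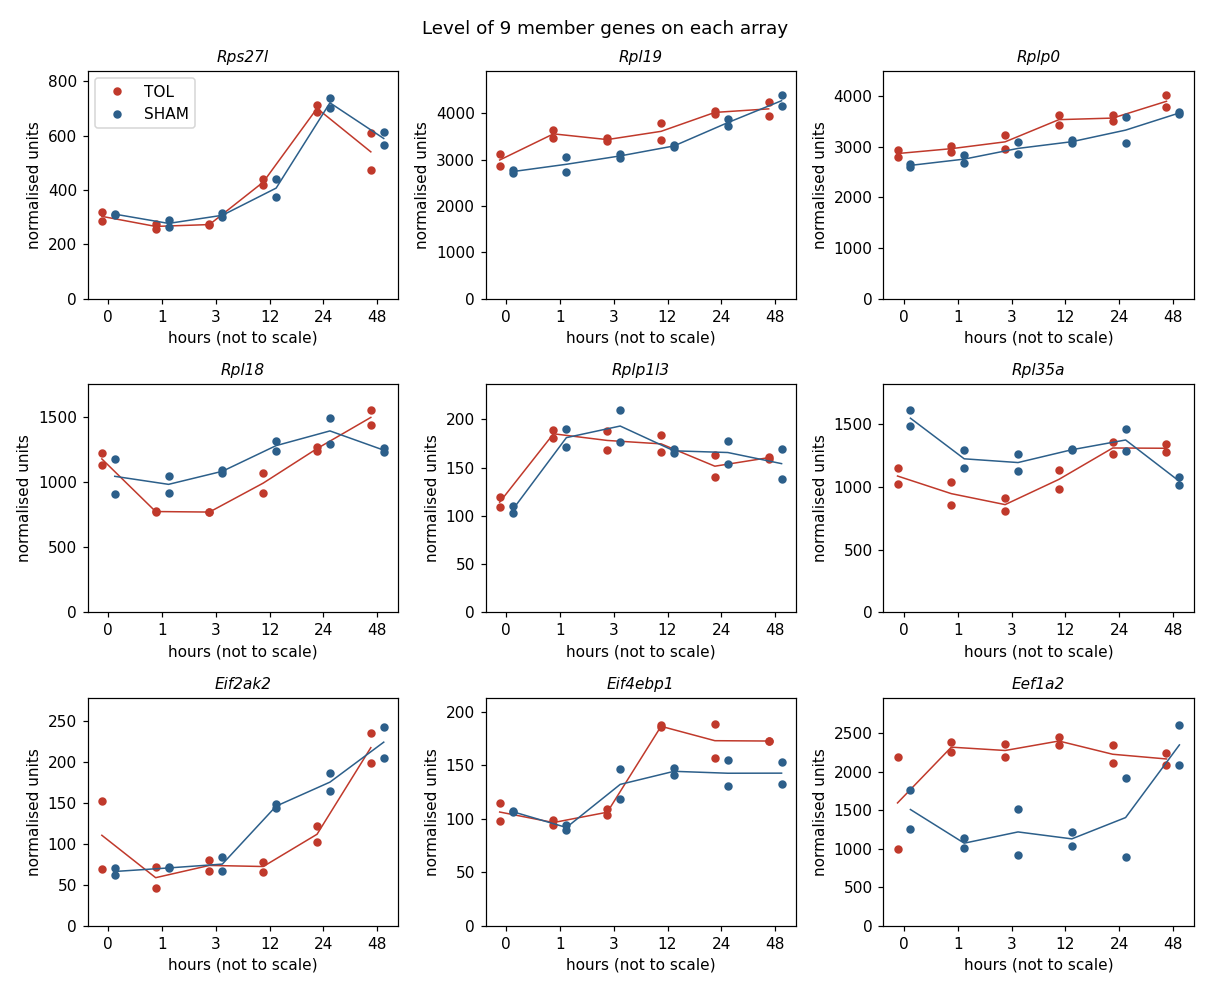
Normalised level (units, axis from 0) of 6 ribosomal and 3 factor genes against time on each of the 24 arrays, TOL in red left of SHAM in blue, with lines through the means of 2 arrays. Rps27l peaked at 24 h in both arms (714 and 687 units in TOL, 738 and 703 units in SHAM), and the 2 TOL 0 h arrays of Eef1a2 had 999 and 2189 units.

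A further 9 ribosomal genes passed the F test in TOL without a call at any single time in that arm. They were Rpl11, Rpl36, Rpl24, Rpl22, Rps15, Rpl35, Rps10, Rpl35a and Rps3a. Rpl11, which binds Mdm2 when ribosome assembly is disturbed, is an example, with 2363 and 2126 units at TOL 0 h, 1579 and 1776 units at 1 h, 1837 and 1858 units at 3 h, 2071 and 1928 units at 12 h, 2082 and 2256 units at 24 h, and 2872 and 2753 units at 48 h (F test adjusted p = 0.0074). Its lowest arrays were those of 1 h and its highest those of 48 h. Rpl22 followed the same order, with 1302 and 1427 units at TOL 1 h and 2089 and 2103 units at TOL 48 h, around 1770 and 1667 units at TOL 0 h (F test adjusted p = 0.0212). The small subunit protein Rps6, the target of the S6 kinases, did not pass in either arm (adjusted p = 0.0903 in TOL and 0.275 in SHAM).

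The smallest interaction p-values among ribosomal genes belonged to Rpl35, Rpl27, Rpl35a, Rpl18 and Rpl13a, and none passed (adjusted p = 0.209, 0.209, 0.252, 0.265 and 0.274). Rpl35, a protein at the exit of the nascent chain tunnel, shows the shape. In TOL it had 2629 and 2451 units at 0 h, 2008 and 2370 units at 1 h, 1917 and 2051 units at 3 h, 2183 and 2772 units at 12 h, 2872 and 2953 units at 24 h, and 2953 and 3356 units at 48 h. Its SHAM values were 2993 and 3074 units at 0 h, 2862 and 2525 units at 1 h, 2638 and 2825 units at 3 h, 2478 and 2622 units at 12 h, 2622 and 2382 units at 24 h, and 2348 and 2390 units at 48 h. The TOL arrays of 48 h lay above and the SHAM arrays of 48 h below those of 0 h in the same arm.

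Of the factor genes, Eif4ebp1 and Eif2ak2 were called over time in both arms. The F test called 2 of 26 in TOL (7.69%, with 11.7% of all tested probe sets) and 5 of 26 in SHAM (19.2%, with 15.7%), and 2 without SHAM 1 h replicate 1. The interaction test called 0, with 5 at an unadjusted p under 0.05, a cutoff at which all tested probe sets were not counted. Their median differences from 0 h were -0.10, -0.07, 0.04, 0.13 and 0.23 in TOL and -0.02, -0.03, 0.14, 0.13 and 0.26 in SHAM at 1, 3, 12, 24 and 48 h, with an SD of 0.10 between replicate arrays. Relative to all tested probe sets, the 48 h value was 0.27 in TOL and 0.28 in SHAM as normalised, and 0.23 and 0.18 as deposited. No factor gene was called at 1 or 3 h in either arm, where 1 and 0 in TOL and 1 and 4 in SHAM had an unadjusted p under 0.05 in limma's test. All tested probe sets were not counted at that cutoff either. At 12 h 1 rose and 1 fell in each arm (2.51% and 1.96% of all tested probe sets in TOL, 3.07% and 2.74% in SHAM), at 24 h 1 rose in TOL (4.3%) and 2 in SHAM (5.01%), and at 48 h 2 rose in each (4.19% and 6.13%). As shares of the 26 genes, 1 is 3.85% and 2 are 7.69%, near those of all tested probe sets.

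Of the eIF2 kinases, Eif2ak2 rose late. It encodes PKR, a kinase activated by double-stranded RNA and induced by interferon. In TOL it had 152 and 68.9 units at 0 h, 46.0 and 71.7 units at 1 h, 80.8 and 66.7 units at 3 h, 78.6 and 66.3 units at 12 h, 121 and 102 units at 24 h, and 236 and 199 units at 48 h. In SHAM it had 70.1 and 62.7 units at 0 h, 70.1 and 71.3 units at 1 h, 84.0 and 66.8 units at 3 h, 143 and 149 units at 12 h, 164 and 186 units at 24 h, and 205 and 243 units at 48 h. The SHAM arrays rose above those of 0 h at 12 h and stayed there, with differences of 1.14 ± 0.30, 1.40 ± 0.30 and 1.75 ± 0.30 at 12, 24 and 48 h (adjusted p = 0.039, 0.00918 and 0.00236), and the 48 h call held in every alternative run, whereas those at 12 and 24 h were lost on the deposited scale, where Eif2ak2 differed by 1.13 and 1.48, and that at 12 h also over the mean of both probe sets (0.57). In TOL only 48 h was called (1.08 ± 0.30, adjusted p = 0.0424), and TOL 0 h replicate 1 stood apart from its replicate. Leaving it out gave a TOL 48 h difference of 1.65, and leaving out its replicate gave 0.51. The TOL call was also lost on the deposited scale and within the TOL day, with Eif2ak2 differences of 0.85 and 1.65. That call held in 9 of the 24 fits that left out 1 array. The interaction was not called (adjusted p = 0.414), so the later rise in TOL was not shown to differ from that in SHAM. A second probe set of Eif2ak2 lay above the noise level on no array.

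The other eIF2 kinases on the array did not pass. Eif2ak1, the heme-regulated kinase, had 125 and 117 units at TOL 48 h, against 162 and 166 units at TOL 0 h (F test adjusted p = 0.112 in TOL). Eif2ak3, which encodes PERK, the kinase of the endoplasmic reticulum that phosphorylates eIF2 after brain ischemia, had 151 and 201 units at TOL 48 h, against 183 and 190 units at TOL 0 h. In SHAM it ranged between 107 and 247 units with overlapping groups (F test adjusted p = 0.747 in TOL and 0.714 in SHAM).

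Of the subunits of eIF2 and of its exchange factor, 1 was called, at a single time. Eif2s1, the alpha subunit that these kinases phosphorylate, had 615 and 517 units at SHAM 24 h, against 352 and 396 units at SHAM 0 h (0.60 ± 0.15, adjusted p = 0.0217), and the arm's F test was not passed (adjusted p = 0.0802). This call was lost on the deposited scale and within the SHAM day, with differences of 0.53 to 0.66 over the 10 other settings. In TOL it had 472 and 499 units at 24 h, where its 0 h arrays had 424 and 356, and it was among the 3 smallest F p-values that did not pass there, with Eif4a2 and Eif2ak1 (adjusted p = 0.0861 for Eif2s1). Eif2s3, the gamma subunit, stayed between 571 and 702 units in TOL and 637 and 756 units in SHAM. Of the exchange factor genes, Eif2b1, Eif2b2 and Eif2b4 were above the noise level on every array and none was called, Eif2b3 crossed it, with arrays from -26.4 to 511 units, and Eif2b5 never reached it.

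Among the genes of the cap complex, Eif4ebp1 was called in TOL. It encodes 4E-BP1, the mTOR target that binds eIF4E and blocks initiation at the cap. In TOL it had 98.3 and 114 units at 0 h, 94.5 and 98.4 units at 1 h, 109 and 103 units at 3 h, 187 and 185 units at 12 h, 189 and 157 units at 24 h, and 173 and 172 units at 48 h. The arrays fell into a lower set up to 3 h and a higher one from 12 h, with differences of 0.81, 0.70 and 0.70 and an SE of 0.14 (adjusted p = 0.00404, 0.00732 and 0.00714). The SHAM arrays had 106 and 107 units at 0 h, 147 and 141 units at 12 h, 154 and 130 units at 24 h, and 153 and 132 units at 48 h. The SHAM arrays of these times also lay above those of 0 h, and the gene passed the F test of that arm (adjusted p = 0.0135), but no single time was called. The 3 TOL calls were lost without TOL 0 h replicate 1, on the deposited scale, within the TOL day and over the mean of its 3 probe sets, of which the other 2 lay above the noise level on 11 and 0 arrays. Over the 10 other settings the differences at 12, 24 and 48 h reached down to 0.16, 0.078 and 0.16.

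Eif4a2, a helicase of the cap complex rich in brain, fell at TOL 12 h, and Eif4e2 fell at SHAM 12 h. Eif4a2 had 1903 and 1618 units at TOL 12 h, against 3464 and 2278 units at TOL 0 h (-0.68 ± 0.18, adjusted p = 0.0468), and the F test of TOL was not passed (adjusted p = 0.0661). Its SHAM values were 1869 and 2071 units at 12 h, where its 0 h arrays had 2953 and 2664, and the gene passed the F test of SHAM (adjusted p = 0.0291) with no single call. The other Eif4a2 probe set was about as bright (mean of 2386 units, against 2421) and correlated with it at 0.96. That probe set passed the F test in TOL and not in SHAM (adjusted p = 0.0358 and 0.0601), so which arm passed depended on the probe set. Without TOL 0 h replicate 1 the Eif4a2 difference at TOL 12 h was -0.38. The call held in 5 of the 24 fits that left out 1 array and was lost in 4 of the 10 other settings. Eif4e2, a cap-binding homolog that represses translation, had 25.1 and 44.0 units at SHAM 12 h, against 73.0 and 124 units at SHAM 0 h (adjusted p = 0.0198). Of the 2 SHAM 12 h arrays, 1 lay below the noise level, so no fold is given, and the call was lost within the SHAM day. Eif4e itself, the cap-binding protein, had 269 and 241 units at TOL 48 h, against 400 and 265 units at TOL 0 h, and was not called.

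Of the scaffold eIF3, Eif3d passed the F test in SHAM (adjusted p = 0.0439), with 546 and 533 units at 48 h, where its 0 h arrays had 334 and 346, and no single time was called. Eif3b and Eif3m were not called. Eif5, which triggers hydrolysis of GTP by eIF2, had 849 and 777 units at SHAM 48 h, against 652 and 424 units at SHAM 0 h (0.63 ± 0.19, adjusted p = 0.0429). Its 0 h arrays stood apart, and the difference was 0.32 without SHAM 0 h replicate 2. The call held in 11 of the 24 fits that left out 1 array. It was lost in 6 of the 10 other settings, with a lowest difference of 0.083. Of the elongation factors, Eef1g, Eef2 and the Eef2 kinase Eef2k were called at no time. Eef2 had 2654 and 3481 units at TOL 0 h and 3266 and 2572 units at TOL 48 h, and its 3 other probe sets correlated at -0.22 to 0.28 with the one used here.

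Between the arms, the ribosomal genes were lower in TOL over the mean of the 6 times, though not at 48 h. Their median TOL minus SHAM difference was -0.05, -0.16, -0.22, -0.18, -0.04 and 0.06 at 0, 1, 3, 12, 24 and 48 h. Over the mean of the 6 times, 1 was higher and 11 were lower in TOL (4.72% and 4.58% of all tested probe sets). Of the 43, 36 had a difference below 0, with a median of -0.12. That left 16.3% above 0, against 46.7% of all tested probe sets. Rps6 had the smallest p, at -0.26 ± 0.04 (adjusted p = 0.00608), with 2442 and 2129 units at TOL 0 h, against 2721 and 2966 units at SHAM 0 h. Over all times it ran between 1956 and 2629 units in TOL and between 2290 and 2966 units in SHAM, and the arms overlapped. Rps3a (-0.23), Rpl23 (-0.21), Rps23 (-0.19), Rpl36al1 (-0.22), Rpl35a (-0.23), Rpl22 (-0.20), Rpl3 (-0.18) and Rps4x-ps9 (-0.34) were also lower, and Rps10 was higher (0.17). Rpl30 and Rpl5, also called lower, lay near or below the noise level in TOL, and no fold is given for them. On the deposited scale none of the 12 was called, and the differences of the 9 lower genes above the noise level were between -0.28 (Rps4x-ps9) and -0.14 (Rpl3) there. Leaving out SHAM 1 h replicate 1, SHAM 12 h replicate 2, SHAM 24 h replicate 1 or TOL 24 h replicate 2 gave 7 calls where all arrays gave 12. No ribosomal gene was called between the arms at a single time, where 4 to 17 of the 43 had an unadjusted p under 0.05 in limma's test. The share of all tested probe sets at that unadjusted cutoff was not counted. At 0, 1, 3, 12, 24 and 48 h, 0.0705%, 0.0423%, 0.0141%, 0.282%, 0.113% and 0.169% of all tested probe sets were called higher in TOL and 0.0282%, 0.0141%, 0%, 0.127%, 0.0705% and 0.127% lower.

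Arm and hybridisation day were nearly the same split of the arrays. With the day in the fit, 0 of 43 ribosomal genes and 0 of 26 factor genes were called, and 1 of all 7092 tested probe sets was (0.0141%), with a median ribosomal difference of -0.00. For 3 of the genes called without the day the difference stayed about as large with it, with a larger SE, at -0.22 ± 0.10 for Rpl23, -0.24 ± 0.10 for Rps23 and -0.17 ± 0.11 for Rpl3. For Rps6, Rps3a, Rpl35a, Rpl22, Rpl36al1 and Rps10 it was -0.12, -0.10, -0.13, -0.13, -0.05 and 0.03. Where a day held both arms, the median ribosomal difference, TOL minus SHAM, was -0.03 at 0 h on day 1 and 0.12 at 48 h on day 2. Within a group split over both days, the array of day 2 was lower for 27 of 43 ribosomal genes at TOL 0 h (median -0.12) and for 31 of 43 at SHAM 48 h (median -0.09). The share of all tested probe sets lower on day 2 was not counted.

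The elongation factor isoforms lay on opposite sides. Eef1a2, the form of neurons and muscle, averaged 0.63 ± 0.15 higher in TOL (adjusted p = 0.0234) and Eef1a1, the form of most other cells, -0.17 ± 0.05 (adjusted p = 0.0449). Eef1a2 had 999 units on the TOL 0 h array of day 1 and 2189 units on that of day 2, between 2082 and 2451 units on the other TOL arrays, and 2089 and 2602 units on the SHAM 48 h arrays of day 1 and day 2. The other SHAM arrays lay between 887 and 1921 units. With the day in the fit the difference of Eef1a2 was 0.03 (adjusted p = 0.998) and that of Eef1a1 -0.00 (adjusted p = 1). The Eef1a2 call held in all 24 fits that left out 1 array and the Eef1a1 call in 4. Eif4e (-0.27), Eif2d and Eif4h (0.24) had the next smallest p-values and did not pass (adjusted p = 0.0501, 0.055 and 0.0653), and Eif2d lay near the noise level.

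**Figure D4:**
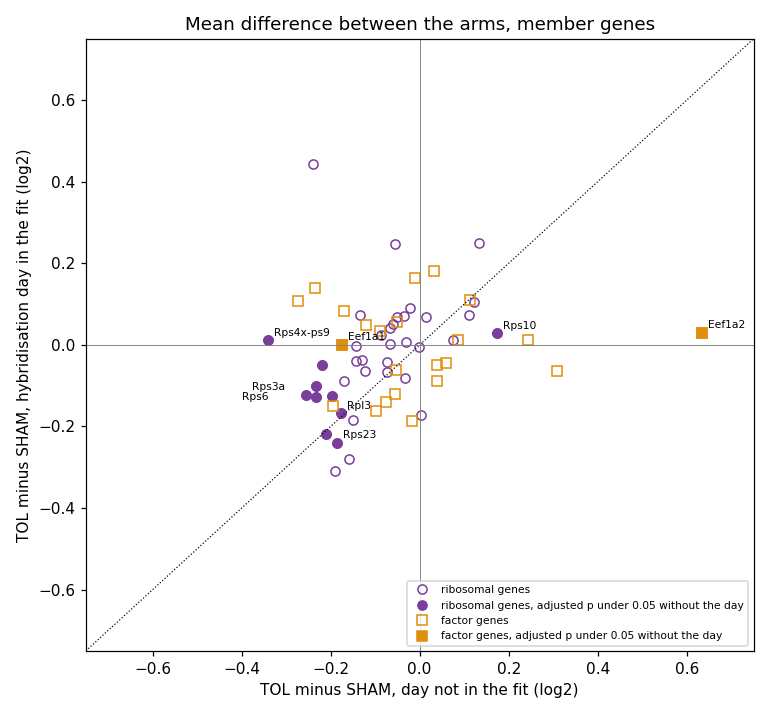
Mean TOL minus SHAM difference (log2) of 62 member genes above the noise level on at least 23 arrays, without the hybridisation day in the fit (x axis) and with it (y axis). Circles are ribosomal and squares factor genes, filled where called without the day, and the dotted line marks equal values. Eef1a2 lay at 0.63 without and 0.03 with the day, and Rps6 at -0.26 and -0.12.

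Other genes of translation, from lists and not from the symbol rule, were counted the same way. Of 8 tested genes of ribosome biogenesis, the F test called 0 in TOL and 5 in SHAM (11.7% and 15.7% of all tested probe sets). In TOL 2 rose at 24 h and 1 at 48 h, where 4.3% and 4.19% of all tested probe sets did. In SHAM 1 rose at 3 h, 3 at 12 h, 3 at 24 h and 2 at 48 h (1.4%, 3.07%, 5.01% and 6.13% of all). Ddx21 fell at SHAM 48 h (-0.66 ± 0.19, adjusted p = 0.0337), where 6.23% of all did. The nucleolar genes Nop58 (1.06 ± 0.15, adjusted p = 0.000652), Gnl3 (0.71 ± 0.13, adjusted p = 0.00347) and Ncl (0.50 ± 0.10, adjusted p = 0.00853) rose at SHAM 24 h, and Gnl3 (0.52 ± 0.13, adjusted p = 0.0263) and Ubtf (1.15 ± 0.30, adjusted p = 0.0357) rose at TOL 24 h. None of the 8 passed the interaction test. Of 13 tested genes of translation control, 2 passed in each arm, a share near that of all tested probe sets. Ppp1r15a, encoding GADD34, the phosphatase subunit that restores eIF2, was 1.70 ± 0.15 higher at TOL 1 h (adjusted p = 2.22e-05) and 1.65 ± 0.15 higher at SHAM 1 h (adjusted p = 3.58e-05), and Ddit3 rose at 12 h in both (1.41 ± 0.24 in TOL, adjusted p = 0.00483, and 1.39 ± 0.24 in SHAM, adjusted p = 0.00402).

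Of 14 tested mitochondrial ribosomal genes, 2 passed the F test in TOL and 4 in SHAM, where 11.7% and 15.7% of all tested probe sets did. Mrpl45 rose at 24 h in both arms (0.63 ± 0.12 in TOL, adjusted p = 0.00687, and 0.79 ± 0.12 in SHAM, adjusted p = 0.00116), and Mrps14 fell at SHAM 12 h (-0.92 ± 0.16, adjusted p = 0.00385). The largest called rise was that of Mrpl40 at TOL 24 h (2.12 ± 0.51, adjusted p = 0.025), whose level was not compared with the noise level. Mrps31 rose at SHAM 24 h (0.51 ± 0.14, adjusted p = 0.037). It was also lower in TOL over the mean of the times, without the day in the fit (-0.30 ± 0.06, adjusted p = 0.0101). Of 4 tested aminoacyl-tRNA synthetases, Tars1 rose at SHAM 12 h (1.12 ± 0.21, adjusted p = 0.00547), where 3.07% of all tested probe sets did. Of 5 tested TOP and ribosomal genes outside the symbol rule, Rack1, a protein of the small subunit head, rose at TOL 48 h (0.51 ± 0.12, adjusted p = 0.0177) and Rpsa at SHAM 48 h (0.53 ± 0.15, adjusted p = 0.035). At TOL 48 h and SHAM 48 h, 4.19% and 6.13% of all tested probe sets rose.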

How the data were processed

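Per the labels, RNA of rat hippocampus was measured on 24 arrays. The authors deposited a linear intensity for every probe set of an array. Which software made it, and how it was scaled, is not given in the sources used here. The experiment files deposited with them gave other numbers, such as hybridisation times. Arrays were quantile normalised, floored at the 25th percentile (3.49 units) and taken to log2, and the 7092 probe sets that exceeded the floor on each array of some group were tested. Limma 3.58.1 in R 4.3.3 fitted 1 mean per group, with moderated F tests per arm and of the interaction, and moderated tests of single contrasts. Two-sided p-values carry the Benjamini-Hochberg adjustment for all of these probe sets (threshold 0.05). An SE is limma's, and array number limits the precision. Fluidics runs were inferred from times at most 5 minutes apart. Figures used Python 3.11.15 and matplotlib 3.10.9. Sequences are from RefSeq (GRCr8). Named members were the largest called changes, the smallest p-values between arms and a list of key members. From the other lists of translation genes only called ones were named, and not all of these. The members and lists were chosen with earlier results of these data known. Alternatives changed scale, floor, filter, probe set, block, day and arrays.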

Additional observations from a re-analysis of the deposited data

How the results depend on the processing

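The ribosomal and factor genes had 61 calls in single contrasts, over time or between the arms. Of these, 7 held on the deposited scale, 38 with arrays divided by their median and 50 with a trimmed mean. With the floor at the 40th percentile 60 held, without a filter on low values 61, and over the mean of a gene's probe sets 51. Calls by F tests are not among the 61. Nor are those of the genes taken from lists, whose stability was not tested. Experiment numbers did not pair the samples (correlation of deviations -0.17 to 0.18), and the replicate block kept 56 calls. With the hybridisation day as a block 32 held, and Rps4x-ps9 stood at 0.011 between the arms. The fit gave 0.44 for Rpl30 and 0.0094 for Rpl5, values near the noise level from which no direction is read. Within a day 1 of 21 TOL and 8 of 26 SHAM calls held. The inferred run as a random block was chosen after seeing the data, had a correlation of -0.08 and kept 61. Between the arms it called 8.33% of all tested probe sets higher and 9.02% lower, against 4.72% and 4.58% without it. Since this setting called more, keeping 61 says little about the part of the run. The cause of these losses was not tested. Signal limits what can be said of the 9 genes not above the noise level on every array.

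Ribosomal genes passing the F test in TOL numbered 17, but 2 as deposited, 8 by median and 3 within the day, and in SHAM 7, but 1 as deposited, 11 with the higher floor, 12 without filter, 1 within the day and 11 with the run. Called at any time in TOL were 8, but 1 as deposited, 3 by median, 15 without filter, 4 with the day and 1 within it, and in SHAM 11, but 2 as deposited, 20 without filter and 3 within the day. Between the arms 12 became 0 as deposited and with the day. Factor genes passing the F test in TOL numbered 2, but 0 as deposited and 4 with the run, and in SHAM 5, but 2 as deposited and 1 within the day. At any time in TOL 3 became 1 as deposited, 5 by median, with the higher floor, without filter and with the run, and 0 within the day. In SHAM 4 became 2 as deposited, 7 with a trimmed mean, the higher floor and the run, and 1 within the day. Between the arms 2 became 0 as deposited and with the day, 4 with the higher floor and 5 with the run.

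Ribosomal median differences in TOL became -0.083 (day) and -0.069 (within it) at 1 h, -0.35 at 3 h and -0.37 at 12 h as deposited, -0.042 (deposited), 0.062 (median), 0.22 (day) and 0.25 (within it) at 24 h, and -0.028 (deposited) and 0.17 (median) at 48 h. In SHAM they became -0.18 at 1 h (median), -0.19 at 3 h (deposited and median), -0.066 at 12 h (deposited), -0.074 at 24 h (median), and -0.25 (median) and -0.098 (trimmed mean) at 48 h. Factor medians in TOL became 0.028 at 1 h over all probe sets and -0.23, -0.31, 0.0012 and -0.055 at 3, 12, 24 and 48 h as deposited. In SHAM they became -0.0040 at 24 h (median), and 0.36 (deposited), 0.079 (median) and 0.10 (all probe sets) at 48 h.

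Leaving out each array in turn gave 9 to 18 ribosomal calls by the F test in TOL and 3 to 8 in SHAM, 3 to 8 and 6 to 13 at any time, 7 to 14 between the arms and 0 to 1 for the interaction. For factor genes it gave 2 to 5 by the F test in SHAM, 1 to 4 in TOL and 1 to 5 in SHAM at any time, and 1 to 7 between the arms. Ribosomal medians in TOL ran from -0.22 to -0.069 at 1 h, -0.23 to -0.084 at 3 h, 0.099 to 0.25 at 24 h and 0.20 to 0.33 at 48 h. Factor medians ran from -0.096 to 0.037 at TOL 3 h, 0.099 to 0.23 at TOL 48 h and 0.048 to 0.24 at SHAM 24 h.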
